A study of Sinopodophyllum hexandrum with 2 samples.

Results

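The miRNA families miR159, miR319 and miR858, regulators of MYB and TCP transcription factor genes in plants, were examined in mature leaves of Podophyllum hexandrum (also named Sinopodophyllum hexandrum), a medicinal herb known for the lignan podophyllotoxin. The groups were a treated sample and a control sample of mature leaf, with 1 small RNA library each. Neither the treatment nor the genotype and age of the plants is given in the sources used here, so how far the pair stands for a condition is unknown. The members were all entries of the libraries' lists of conserved miRNAs whose name carries miR159, miR319 or miR858, with or without a letter after the number. There were 9 among the 262 listed entries, 1 of 107 in the treated list and 8 of 155 in the control list. The lists give a name and a mature sequence for each miRNA and no read count, so no level, fold change or test of the treatment could be computed for any member.

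A plant miRNA guides an Argonaute protein to mRNAs with a nearly complementary site, and the pairing of its 5′ part weighs most in target choice. In Arabidopsis, miR159 represses GAMYB-like genes such as MYB33 and MYB65, and plants that lack its main copies have curled leaves. The related miR319 represses CINCINNATA-like TCP genes, which limit cell division in the leaf margin, and its excess gives crinkled leaves. The unrelated miR858 targets R2R3-MYB genes, among them activators of flavonoid synthesis, a branch of the phenylpropanoid metabolism from which lignans also derive.

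The sequences of all members are shown here because the lists give only names and sequences. Each is written 5′ to 3′ with the seed, bases 2 to 8, in capitals, and prefixes name the species of the listed entry and not Podophyllum. The first is the entry of the treated list and the other 8 are those of the control list.
osa-miR159c (rice, treated): aUUGGAUUgaagggagcucca
osa-miR159d (rice, control): aUUGGAUUgaagggagcuccg
cme-miR159b (melon, control): aUUGGAUUgaagggagcuccu
vvi-miR159c (grapevine, control): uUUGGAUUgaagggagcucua
lus-miR159b (flax, control): uUUGGAUUgaagggagcucuc
sof-miR159e (sugarcane, control): uUUGGAUUgaaaggagcucuu
bdi-miR159c (Brachypodium distachyon, control): uUUGGUUUgaagggggcucug
cca-miR319 (globe artichoke, control): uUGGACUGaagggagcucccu
mdm-miR858 (apple, control): uUCGUUGUcuguucgaccuga

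miR159 was the only family of the 3 listed for both libraries, with 1 sequence in the treated list and 6 in the control list. miR319 had 0 sequences in the treated list and 1 in the control list, and so had miR858. No member sequence was identical between the lists (0 of 9, which gives an exact 95% binomial interval of 0% to 33.6% that covers counting error only). Of all 122 distinct sequences in either list, 41.0% were in both, and of all 47 families 46.8% were, whereas 1 of the 3 families here was. None of the 9 member names recurred, while 44.8% of all 181 names did. With 1 member in the treated list, at most 1 member sequence, name or family could recur, so 41.0%, 44.8% and 46.8% could not be reached. The interval treats the 9 sequences as independent and takes no account of this limit. The members' entries are related to each other, so these shares describe the lists and cannot be read as a difference between treated and control leaf.

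The miR159 sequences were close to each other although none recurred. Of 10 families in both lists with at least 3 distinct sequences, 2 shared no identical sequence, miR159 and miR399. The miR399 sequences lay a median of 13 edits apart (an edit is 1 base substituted, added or removed), against a median of 3 and a maximum of 5 for the 7 miR159 sequences. Medians in the rest of the 10 families were 1 (miR535), 2 (miR157, miR398, miR408 and miR827), 4 (miR156), 5 (miR482) and 10 (miR3627). The miR159 median was thus within their range. The treated list held 1 miR159 sequence, so at most 1 identical sequence was possible.

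**Figure D1:**
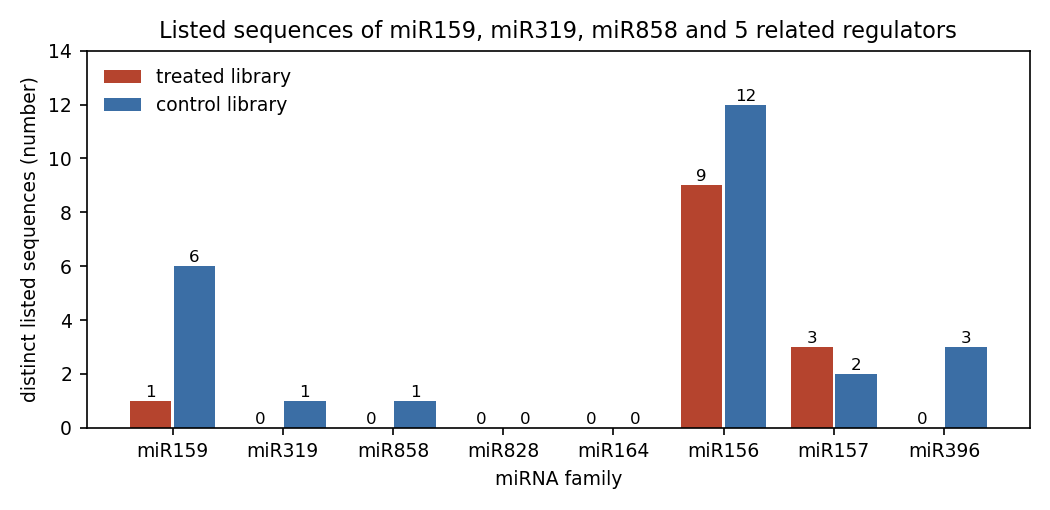
Number of distinct listed sequences (vertical axis) for 8 miRNA families (horizontal axis) in the treated library (red) and the control library (blue). miR159 has 1 sequence in the treated and 6 in the control library, and miR319 and miR858 are listed for the control library only. The lists hold no read counts, so bars are not abundances.

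A list of 8 families that act on MYB or TCP genes or in the pathways around them gave 3 families in the treated list and 6 in the control list. Of all 47 families in either list, 63.8% were in the treated list and 83.0% in the control list, and 36.2% were in the control list only. The 8 include 2 that were in neither list, which the 47 leave out, so these shares are not on the same base. The 8 also include the 3 member families, already counted above. Besides the members, miR828 also targets MYB genes, miR164 targets NAC genes that set leaf margins, miR156 and miR157 target SPL genes, and miR396 targets growth-regulating factor genes and is raised by TCP4 in Arabidopsis. miR828 and miR164 were in neither list. miR156 had 9 sequences in the treated list and 12 in the control list, 7 of them identical. miR157 had 3 in the treated list and 2 in the control list, both of which recurred. miR396 was not in the treated list and had 3 sequences in the control list, like miR319 and miR858 a family of the control list only.

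The treated entry osa-miR159c differed from its closest control counterparts only in the last base. Differences are given as the base of the control entry, the position from the 5′ end, and the base of osa-miR159c. Against the other rice entry, osa-miR159d, the difference was G21A, and against the melon entry, cme-miR159b, it was U21A, so the first 20 bases of all 3 were the same. Against the grapevine entry, vvi-miR159c, the differences were U1A and U20C, and both sequences end in the same base. The flax entry, lus-miR159b, differed by U1A, U20C and C21A. The sugarcane entry, sof-miR159e, differed by U1A, A12G, U20C and U21A. The Brachypodium entry, bdi-miR159c, was the farthest, with U1A, U6A, G15A, U20C and G21A. At each of the 21 positions, osa-miR159c carried a base that at least 1 control miR159 sequence has there. Only 1 of the 6 control sequences, bdi-miR159c, differed from it anywhere in bases 2 to 11.

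**Figure D2:**
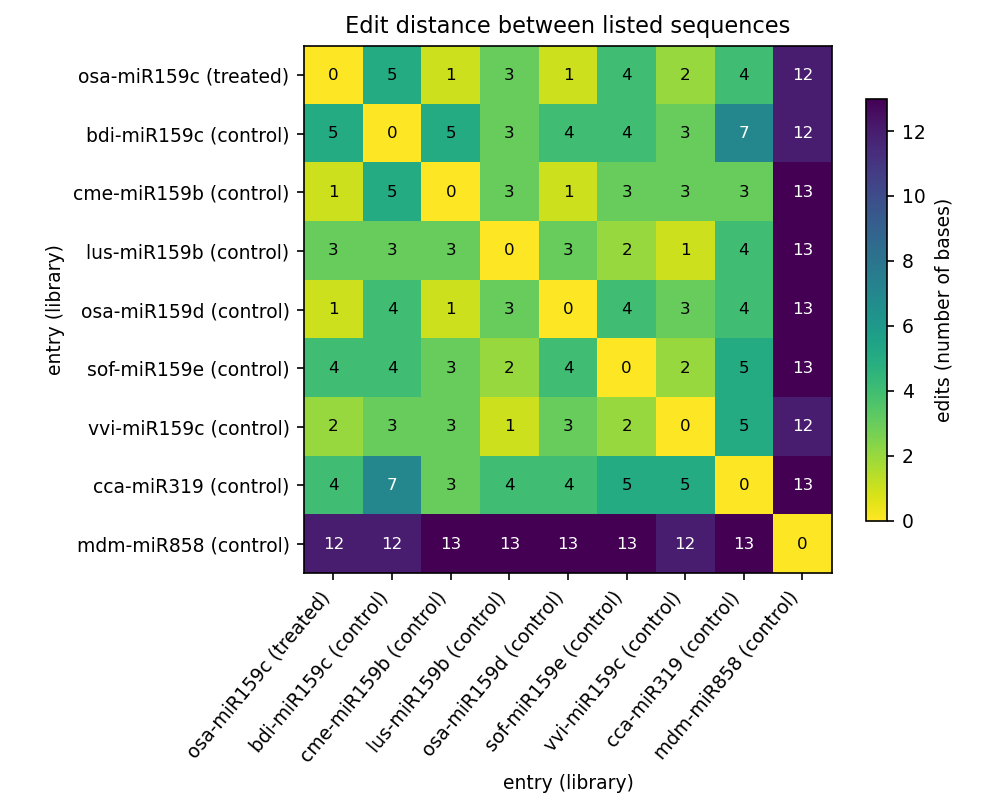
Number of edits between each pair of the 9 member sequences, with entries and their library on both axes and the count in each cell. The treated osa-miR159c lies 1 edit from cme-miR159b and osa-miR159d, cca-miR319 lies 3 to 7 edits from the miR159 sequences, and mdm-miR858 lies 12 or 13 edits from all others.

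The members fell into 4 seeds. UUGGAUU was shared by 6 sequences, all of miR159, of which 1 was the treated entry and 5 were control entries. The seed of bdi-miR159c was UUGGUUU, that of cca-miR319 was UGGACUG and that of mdm-miR858 was UCGUUGU. None of these 4 seeds was found in a listed sequence of another family. By seed, 66.7% of the member sequences (6 of 9) had a counterpart in the other list, although by full sequence none had. The share over all 122 listed sequences was 60.7%, identical ones included, and 41.6% of all 77 seeds were in both lists. All 6 counterparts rest on the treated osa-miR159c, so they are not independent.

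Within miR159, 15 of the 21 positions carried the same base in all 7 sequences, and the 6 that varied were 1, 6, 12, 15, 20 and 21. The longest stretch common to all 7 was UUGAA at positions 7 to 11, and without bdi-miR159c it was the 10 bases 2 to 11. The variable positions were uneven. Position 6 differed in bdi-miR159c alone, position 12 in sof-miR159e alone and position 15 in bdi-miR159c alone, while position 21 carried 4 different bases.

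Positions 1 and 20 varied together. The 3 sequences that begin with A, the treated osa-miR159c and the control osa-miR159d and cme-miR159b, all had C at position 20. The 4 that begin with U all had U there, and all 4 were in the control list. Sequences of the A-start group were 1 edit apart in each of 3 pairs, those of the U-start group 1 to 4 edits apart in 6 pairs, and sequences of different groups 2 to 5 edits apart in 12 pairs. Because the groups differ at positions 1 and 20, 2 edits is the least possible between them. The ranges within the U-start group and between groups overlap. The grouping did not follow the plant class of the names: the A-start control entries were of rice, a monocot, and melon, a eudicot, and the U-start entries were of sugarcane and Brachypodium, both monocots, and grapevine and flax, both eudicots. The treated list has 1 miR159 sequence and so could hold 1 form only, the A-start one, and the control list held 2 A-start and 4 U-start sequences.

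The first base is known in Arabidopsis to guide Argonaute choice, with U favoured by AGO1 and A by AGO2. An A start was present in 3 of 7 miR159 sequences (42.9%) and 3 of all 9 members (33.3%), against 18 of all 122 listed sequences (14.8%). The 3 are among the 18 and share their first 20 bases, so they are not independent. Over all families, it was present in 5 of 70 sequences in the treated list (7.1%) and 15 of 102 in the control list (14.7%). A U start was present in 6 of the 9 members (66.7%) and in 74 of the 122 (60.7%). All 9 members were of 21 nt, compared with 52.5% of the 122. GC content ranged from 38.1% in sof-miR159e to 57.1% in cca-miR319, with a median of 47.6% over the members and 52.4% over all listed sequences. No member name carries an arm suffix, as was the case for 66.4% of names in the treated list and 65.2% in the control list.

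The only miR319 sequence, cca-miR319, had just 1 aligned position at which it differed from all miR159 entries at once. Without gaps, cca-miR319 aligned with miR159 over 20 bases when shifted by 1, so that its base 1 faced base 2 of miR159. Counted along miR159, with the miR159 base first and the miR319 base last, the difference in all 7 sequences was U7C, which falls in the seed. The treated osa-miR159c and the 6 control miR159 sequences had U at this position. The position was picked because no miR159 sequence has the miR319 base there, so it cannot test the names. The other difference from the commonest miR159 base was U20C, but the 3 A-start sequences already have C there. At position 21, where no base is commonest in miR159, only lus-miR159b had the miR319 base. At 14 of the 20 aligned positions, all miR159 sequences had the miR319 base.

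**Figure D3:**
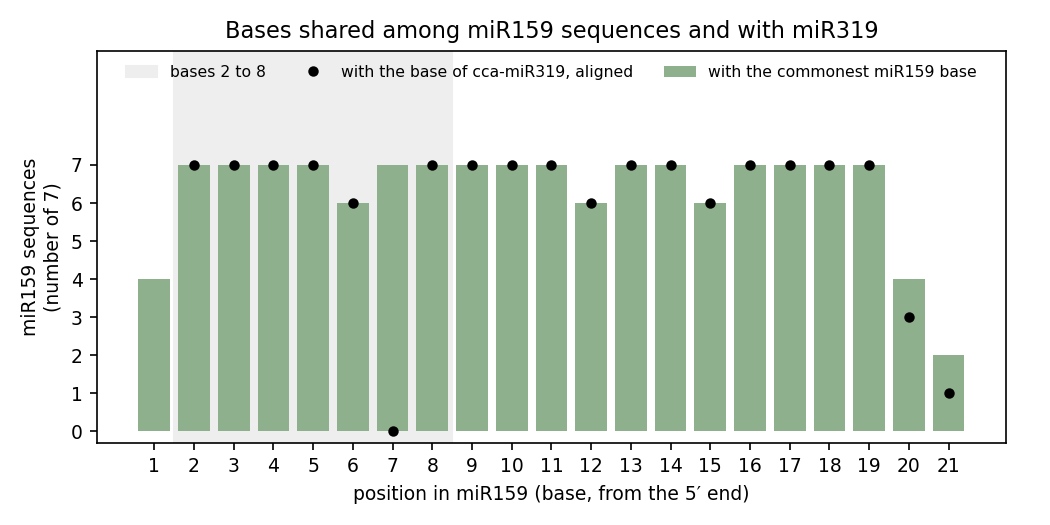
Number of miR159 sequences out of 7 (vertical axis) that carry the commonest miR159 base (green bars) or the aligned base of cca-miR319 (black points) at each position from the 5′ end of miR159 (horizontal axis), with bases 2 to 8 shaded. At position 7, all 7 share 1 base and 0 have the miR319 base. Position 1 has no point because cca-miR319 does not reach it.

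In single comparisons, cca-miR319 had 2 mismatches over these 20 bases to the treated osa-miR159c and 2 each to the control osa-miR159d, cme-miR159b and lus-miR159b. It had 3 to vvi-miR159c, 4 to sof-miR159e and 5 to bdi-miR159c. By edits, which also count the shifted ends, it was 4 from the treated osa-miR159c and 3 to 7 from the control miR159 sequences. In the control list the miR159 sequence nearest to it was thus cme-miR159b, at 3 edits, which is fewer than separate some miR159 sequences from each other.

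miR858 had no close relative in either list. The control entry mdm-miR858 lay 12 or 13 edits from the 8 other member sequences. Its nearest sequences in the treated list, of miR398, a family that targets superoxide dismutase genes, and miR5077, were 8 edits away. The miR159 and miR319 sequences were 8 or 9 edits from the nearest sequence outside the 3 member families, which was of miR3711. No listed sequence came within 7 edits of the reverse complement of a member, the closest being at 8.

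Of the 8 control members, 7 lay within 5 edits of the treated osa-miR159c, mdm-miR858 being the exception. The 7 were the 6 miR159 entries and cca-miR319, all set against 1 treated sequence, so they are not independent. Members were picked by family name, so closeness within miR159 follows largely from the rule. The share over all 52 distinct sequences of the control list only was 55.8%, and over all 102 control sequences, identical ones included, 77.5%. The nearest treated sequence was a median of 3.5 edits away for the 8 members and 6 for the 44 other control-only sequences, with ranges of 1 to 8 and 1 to 11 that overlap. Of the 44, 22 were within 5 edits. Both the members and the 44 include families with no treated entry, miR319 and miR858 among the members. The members come from 3 families and the 44 from all others, so the members and the 44 are not compared like for like.

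**Figure D4:**
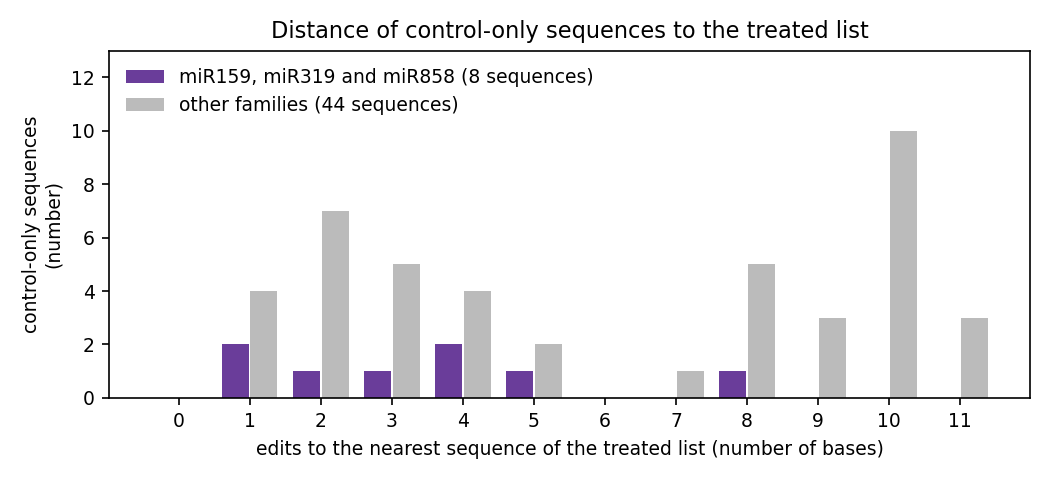
Number of control-only sequences (vertical axis) by edits to the nearest sequence of the treated list (horizontal axis), for the 8 members (purple) and 44 sequences of other families (grey). Of the members, 7 lie at 1 to 5 edits and mdm-miR858 at 8.

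The species prefixes of the members were not equally present in the lists. The rice prefix, carried by the treated miR159 entry and by a control one, stood on 9 entries in each list. Of the prefixes of control members only, those of melon (2 treated and 2 control entries), apple (6 and 9), grapevine (4 and 8) and flax (1 and 4) occurred in both lists. Those of Brachypodium (0 treated and 5 control entries), sugarcane (0 and 1) and globe artichoke (0 and 1) were in the control list only. Each member sequence stood under 1 name in its list. Whether a prefix bears on what was listed was not tested.

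The count table of predicted miRNA loci, which is the deposited file with read numbers, held none of these families by name among its 117 entries, of which only 1 is named as a miRNA at all, so the search by name could find little. It pairs no mature sequence with a locus, so a predicted locus with a miR159, miR319 or miR858 sequence could not be looked for.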

How the data were processed

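Per the labels' protocols, mature leaf RNA was made into NEBNext small RNA libraries and read single-end. cutadapt is named in the submitters' processing notes without a version. For the lists, the reference collection, the matching rule and any read minimum are not stated. The lists may therefore hold reference sequences of other species, and the same reads may stand behind several related entries. Library depth is unknown. Lists were paired with libraries by the code that both carry. The deposited count table, with raw read counts per predicted locus by the authors, was searched for member names only.

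Members were found by name, and every member is named. Of other families, miR398, miR399, miR3711 and miR5077, and those set beside miR159 by their median edits, were chosen after their values were seen. Sequences came from the deposited lists. Edit distance, the best gapless alignment (at least 18 bases) and bases per position were computed in Python 3.11.15 with numpy 2.4.6, scipy 1.17.1 and matplotlib 3.10.9, and tested on simulated sequences. Intervals are exact binomial (Clopper-Pearson). Members and family lists were chosen with earlier results of these data known. With 1 library per group, no test of the treatment was made. Alternatives were other units of overlap, distance limits, alignments and member rules.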

Additional observations from a re-analysis of the deposited data

How the results depend on the processing

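The numbers of member entries, 1 in the treated list and 8 in the control list, were the same with lower-case names and with a sequence rule of at most 5 edits from a member. The share of member sequences in both lists was 0% by sequence, by name and when one sequence had to contain the other, 33.3% by family and 66.7% by bases 2 to 8. Control members close to the treated entry numbered 7 at 5 edits and without gaps, 4 at 3 edits and 2 at 1 edit. Positions at which cca-miR319 differed from miR159 numbered 2 by the commonest base, 2 or 3 against 5 single entries, 4 against sof-miR159e and 5 against bdi-miR159c. Only 1 position differed from all miR159 sequences. With bases 2 to 7 as the seed, 6 sequences shared the commonest, as with bases 2 to 8. The limit of 1 edit and the shorter seed were chosen after seeing the data. The values that moved did so because stricter or looser matching, or a different entry to compare with, was used. No paired analysis was possible because each group had 1 library. Since library depth is unknown, an unlisted miRNA was not shown to be absent.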
